A study of Homo sapiens with 27 samples.

Results

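The genes described here are those of the 4 fibroblast growth factor (FGF) receptors FGFR1, FGFR2, FGFR3 and FGFR4, of the co-receptor KLB (beta-klotho) and of the hormones FGF19 and FGF21, 7 genes in all. Their probes were found by gene name in the scanner output: 17 of the 41000 probes of the array shared by 8 compounds, and 16 of 41000 on the array used for the ninth. KLB has that name on the second array only, and its probe on the first, listed there as LOC152831, was matched by its RefSeq accession NM_175737. The genes were chosen by their names and with their log2 ratios of compound over DMSO in these same samples known, so every ratio of these 7 genes is given as a description and none was tested.

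HepG2, a human hepatocellular carcinoma line that keeps many hepatocyte functions, was treated for 48 h with 1 of 9 polycyclic aromatic hydrocarbons, compounds of fused aromatic rings. The smaller compounds were NP (naphthalene), CHR (chrysene), PH (phenanthrene) and BA (benzo[a]anthracene). The others were BF (benzo[k]fluoranthene), BaP (benzo[a]pyrene), DBA (dibenzo[a,h]anthracene), 3MC (3-methylcholanthrene) and IND (indeno[1,2,3-c,d]pyrene). Each compound had 3 two-colour Agilent 44K arrays, with RNA of treated cells labelled with Cy5 and RNA of HepG2 given the solvent DMSO labelled with Cy3, and the dyes were never exchanged, so that a dye bias of a probe remains in its ratio. Doses are not given, the IND arrays had a different platform from the other 24, and nothing says that the 3 arrays per compound came from separate cultures, so p-values reflect only the scatter among arrays, possibly technical.

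FGF19 and FGF21 are hormones rather than local growth factors: they circulate, and they act on cells that carry KLB together with an FGF receptor. In hepatocytes FGF19, released by the gut in response to bile acids, acts through KLB with FGFR4 and represses bile acid synthesis, while FGF21 is made by the liver under fasting and cellular stress and acts mainly through KLB with FGFR1. Receptor activation passes through FRS2, GRB2 and RAS to the kinase ERK, whose early targets and feedback inhibitors are used as readouts of this signalling.

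RefSeq windows of 250 bases before the annotated start (GRCh38.p14) were given for 5 of the 7 genes, 10 windows in all, and not for FGFR1 and FGF19. Shown here are both windows of FGFR4 and the window of FGFR3, since of the receptors with a window these had the lowest ratios with BF, and that of FGF21, which responds to cellular stress. Capitals mark letters that matched the core GCGTG bound by the aryl hydrocarbon receptor (AHR), the E-box CACGTG or the CEBP-ATF element TGATGNAAN, each searched on both strands, and a match on the opposite strand reads as its reverse complement. The windows are chr5:177086665-177086914 and chr5:177089300-177089549 (FGFR4), chr4:1793043-1793292 (FGFR3) and chr19:48755274-48755523 (FGF21), all on the plus strand.
FGFR4 upstream start: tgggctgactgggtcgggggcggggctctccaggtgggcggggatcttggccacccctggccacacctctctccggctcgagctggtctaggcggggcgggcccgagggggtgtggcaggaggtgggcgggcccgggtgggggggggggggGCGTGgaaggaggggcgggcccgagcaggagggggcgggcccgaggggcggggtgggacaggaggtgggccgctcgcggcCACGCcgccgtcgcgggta
FGFR4 downstream start: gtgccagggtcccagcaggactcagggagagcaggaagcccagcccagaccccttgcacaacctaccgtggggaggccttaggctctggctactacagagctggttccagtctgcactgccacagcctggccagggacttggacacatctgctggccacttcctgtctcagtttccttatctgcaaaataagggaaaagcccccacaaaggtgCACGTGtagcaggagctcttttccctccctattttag
FGFR3: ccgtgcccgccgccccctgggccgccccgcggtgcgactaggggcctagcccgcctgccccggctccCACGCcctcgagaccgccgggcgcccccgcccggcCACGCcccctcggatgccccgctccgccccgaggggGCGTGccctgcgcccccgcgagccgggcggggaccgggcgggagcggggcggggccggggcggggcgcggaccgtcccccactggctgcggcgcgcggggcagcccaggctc
FGF21: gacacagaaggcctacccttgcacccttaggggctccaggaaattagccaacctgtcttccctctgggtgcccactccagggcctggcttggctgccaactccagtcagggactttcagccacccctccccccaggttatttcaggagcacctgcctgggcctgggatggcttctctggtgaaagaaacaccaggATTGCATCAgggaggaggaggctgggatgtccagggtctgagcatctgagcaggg
The AHR core occurred 2 times in the upstream FGFR4 window, 95 to 99 and 15 to 19 bases before the start, 3 times in that of FGFR3 and 1 time in the first of 5 FGFR2 windows. It occurred in 32.2% of all 35116 windows. The downstream FGFR4 window held 1 E-box, found in 6.34% of all windows. The FGF21 window held 1 CEBP-ATF element on the opposite strand, 47 to 55 bases before the start. The last of the 5 FGFR2 windows also held 1, on the same strand as the gene, 183 to 191 bases before its start. This element was found in 3.13% of all windows. The KLB window held none of these letters, and the inverted repeat bound by the bile acid receptor FXR was in 0 of the 35116 windows. The share of G and C was 79.6% and 57.2% in the FGFR4 windows, 86.8% for FGFR3 and 39.2% for KLB, with a median of 58% over all windows. These are letter matches in short windows and show no binding.

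All values below are log2 ratios of compound over DMSO, where -1 is a level lowered to 50% and 0 is no difference. Each gene is given by its brightest probe unless another is named, as mean ± SD (n = 3). Percentiles give the rank of a probe's signal among all probe spots of the same array and channel, and are not compared between probes. Median Cy5 signals were 70 to 163 units for NP, 3MC and DBA, whose files were also laid out differently, and 342 to 1535 on the others. Across genes, arrays of a compound correlated at 0.866 or more, except BA array 1, which correlated at 0.13 and 0.18 with BA arrays 3 and 2, so BA is given with and without it. The liver products ALB, AFP, APOA1, APOB, TTR, SERPINA1 and TF were at or above the 93.8th percentile of DMSO signal on all 27 arrays. FGB and HNF4A, also listed as liver genes, ranged lower, from the 85.2nd to 95.6th and from the 37.8th to 93.9th percentile. HNF4A stood above background in DMSO on 23 of the 24 shared arrays. The defining markers of leukocytes (PTPRC), endothelium (PECAM1, CDH5) and fibroblasts (COL1A1, COL3A1) reached at most the 48.3rd. The other 2 markers of other cells that were listed ranked higher: CD68, of macrophages, between the 51.4th and 79.4th and ACTA2, of smooth muscle and myofibroblasts, between the 80.1st and 92.9th. Their part in the results was not tested. As a check on treatment, the AHR target CYP1A1 rose with 8 compounds and was not called with NP (0.48 ± 0.03, adjusted p 0.529 by limma). Its ratio was 0.55 on BA array 1 against 6.24 and 6.25 on the other BA arrays. The p-value for NP uses the spread of CYP1A1 over all shared arrays, BA included, so it does not show that NP had no effect. CYP1A1 reached 2.61 ± 0.26 with PH and at least 74.5-fold with BF and 71.4-fold with IND, where Cy5 was saturated on all 3 arrays. RNA was taken from whole cultures, so fewer cells of a kind and less RNA per cell cannot be told apart.

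Across the 7 genes, ratios to DMSO were low far more often than high. The lowest mean was that of FGFR4 with BF, and the gene that was lowest differed between compounds. Both hormones lay near 0, apart from FGF21 with CHR (-0.55). Counting mean ratios of the brightest probe, 5 of the 7 genes were at least 1.5-fold lower with CHR, BaP, IND and BF, 2 with PH, 1 each with NP, 3MC and DBA, and 0 with BA. Without BA array 1, 5 of the 7 were with BA (FGFR1, FGFR2, FGFR3, FGFR4 and KLB). With the mean of each gene's probes, FGFR1 was no longer past 1.5-fold with NP, 3MC, DBA, PH and IND, which left NP, 3MC and DBA at 0. None was at least 1.5-fold higher with any compound in these values. Of all genes tested with limma (17253, or 14218 for IND), the share that fell at an adjusted p under 0.05 and at least 1.5-fold was 12.6% with CHR, 10.1% with BaP, 13.7% with IND and 20.6% with BF. It was 7.97% with PH, 12.5% with NP, 7.41% with 3MC, 7.23% with DBA and 3.13% with BA. The share that rose was 11.9% with CHR, 15.1% with BaP, 11.1% with IND, 16.1% with BF, 10.5% with PH, 6.68% with NP, 3.69% with 3MC, 3.08% with DBA and 2.10% with BA. For BA this came to 902 genes called, 1832 without array 1 and 599 without array 3. The rule that chose these genes used the same ratios, so the counts are not read against these shares. By single probes, of which all 17 passed the filter on dim spots for the first 8 compounds and 13 of 16 for IND, 11 of 17 were at least 1.5-fold lower with CHR, 10 of 17 with BF, 10 of 16 with IND and 9 of 17 with BaP. With PH and BA the number was 4 of 17 each (10 of 17 with BA without array 1), with NP and 3MC 2 of 17 each and with DBA 1 of 17. No probe was at least 1.5-fold higher in these values. With plain background subtraction all 53 probe means past 1.5-fold stayed so, and 15 more passed it, in both directions. There 1 FGFR2 probe was at 0.65 with NP and 0.62 with DBA, and the second FGF19 probe at 1.23 ± 1.67 with PH. With DBA 1 dim FGFR1 probe went from -0.05 to -0.97 and 1 FGFR2 probe from -0.12 to -1.03. These counts therefore depend on the background correction.

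**Figure D1:**
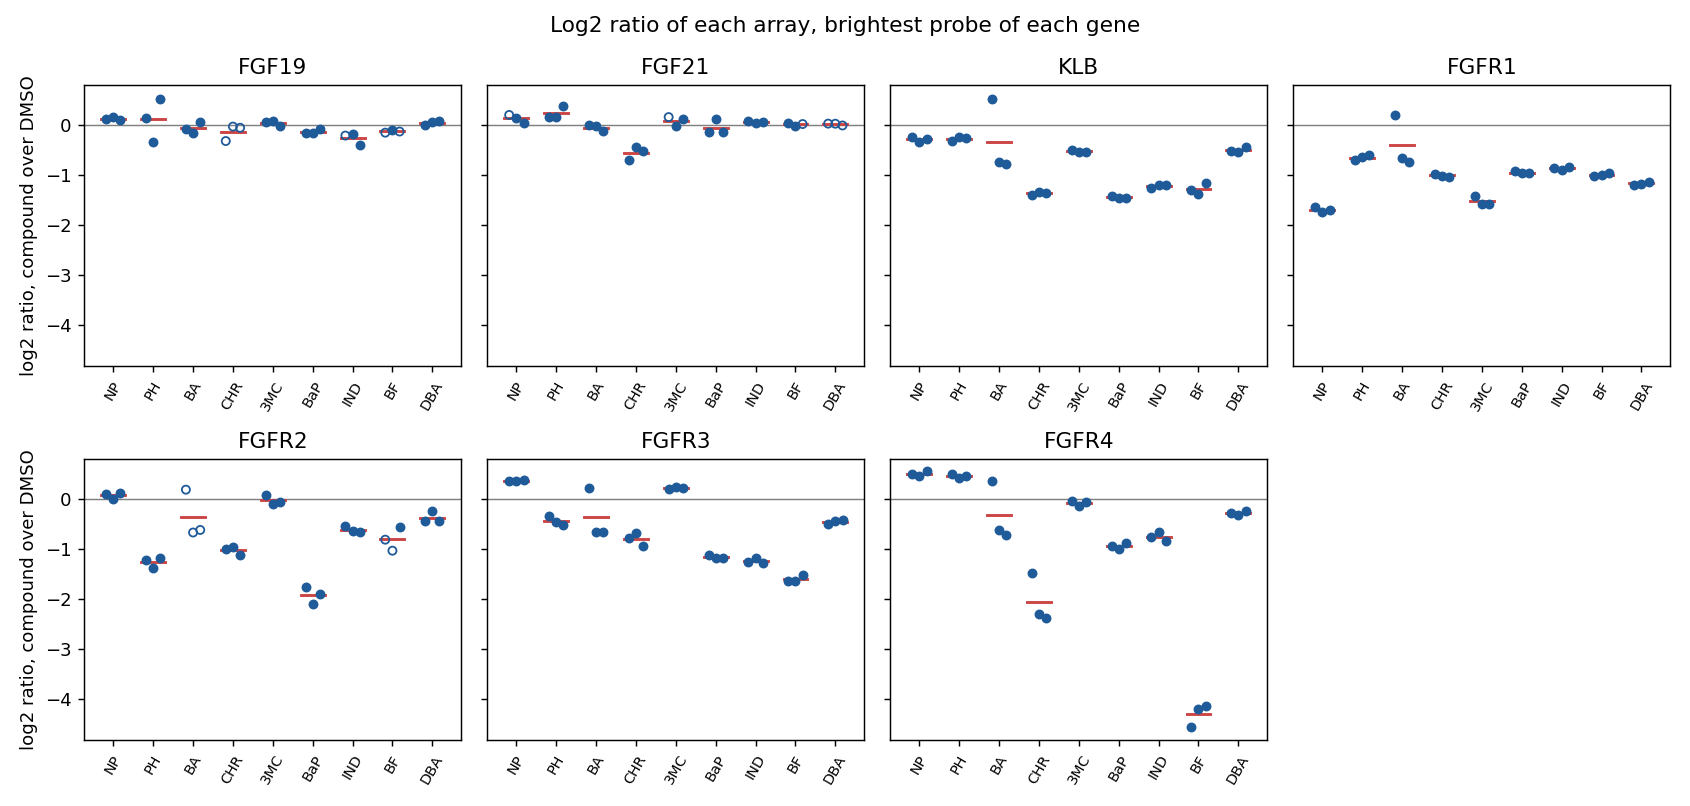
Log2 ratio of compound over DMSO (vertical axis) on each of the 27 arrays for the brightest probe of the 7 genes, by compound, with means as red bars and arrays on which neither channel stood above background as open circles. FGFR4 with BF lies lowest at -4.57 to -4.15, and FGF19 and FGF21 lie near 0 with most compounds.

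The hormones were dim. FGF21 stood above background in DMSO on 16 of 27 arrays and in the compound channel on 18, with DMSO signals between the 11.2th and 33rd percentiles. With CHR its ratios were -0.70, -0.44 and -0.52, and all 3 CHR arrays were above background in both channels. With PH they were 0.16, 0.15 and 0.39, so that these arrays do not overlap those of CHR. With the other 7 compounds FGF21 means lay between -0.05 and 0.13, and the arrays of neighbouring compounds overlapped from BaP to PH, leaving CHR alone outside. FGF19 on its brighter probe of the shared platform had means between -0.14 ± 0.05 (BaP) and 0.13 ± 0.04 (NP), and all neighbours in the order of compounds overlapped. That probe stood above background in DMSO on 16 of 27 arrays, on all NP, 3MC and DBA arrays and on none with CHR. The second FGF19 probe had its lowest mean with BF at -0.33 ± 0.11, with DMSO above background on 1 of 3 arrays there. For IND, where only the second FGF19 probe passed the filter, its mean was -0.26 ± 0.12. On the brighter probe the arrays of BaP and BF all lay below those of NP, with Cy5 above background on 0 of 3 arrays for BaP and for BF.

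KLB, which gives both hormones their hold on the receptor, stood above background in both channels on all 27 arrays. With BaP its ratios were -1.42, -1.46 and -1.46, with CHR -1.39, -1.35 and -1.36, with BF -1.30, -1.37 and -1.17 and with IND -1.25, -1.20 and -1.19. These 4 compounds formed a low group, 2.32- to 2.73-fold below DMSO, in which BaP did not overlap CHR, and BF overlapped both CHR and IND, which did not overlap each other. With 3MC the mean was -0.53 ± 0.02, with DBA -0.50 ± 0.06, and with NP and PH -0.28 ± 0.05 each. Every array of these compounds was below 0 and above every array of the low group. With BA the arrays gave 0.52, -0.73 and -0.78, a mean of -0.33 ± 0.73, or -0.76 without array 1.

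KLB showed a difference between probes on the arrays of NP, 3MC and DBA. A pair of probes listed with KLB's old locus name LOC152831 on the shared array, but carrying a cDNA record (BC033021) in place of the KLB accession, are not among the 7 genes' probes. With NP they gave -1.04 ± 0.05 and -1.52 ± 0.03, with 3MC -1.14 ± 0.01 and -1.65 ± 0.05 and with DBA -1.27 ± 0.04 and -1.72 ± 0.12. On these arrays both lay below the KLB probe, whose means there were -0.28 to -0.53. With CHR and BF the pair gave -1.47 to -1.26, close to the KLB probe, and with BaP -1.80 ± 0.08 and -2.07 ± 0.05, below it. Which transcripts each probe reads was not tested.

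FGFR4, the receptor for FGF19 in hepatocytes, had the lowest mean ratio of the 7 genes and the widest range of means over compounds. With BF its arrays gave -4.57, -4.21 and -4.15, a mean of -4.31 ± 0.22 or 19.8-fold lower. With CHR they gave -1.48, -2.31 and -2.38, a mean of -2.06 ± 0.50 or 4.16-fold lower. BF did not overlap CHR, and CHR overlapped no other compound. BaP followed with -0.94, -1.01 and -0.88 and IND with -0.76, -0.67 and -0.85, and these also did not overlap. DBA lay at -0.28 ± 0.03 and 3MC at -0.08 ± 0.05. NP and PH were the only compounds with all 3 arrays above 0, at 0.50 ± 0.05 and 0.46 ± 0.04, and overlapped each other. BA gave 0.36, -0.63 and -0.72, a mean of -0.33 ± 0.60, or -0.67 without array 1. FGFR4 has 1 probe, so no second probe of this gene bears on these values. In the authors' deposited table the same probe averaged -4.26 with BF, and over the 2 arrays used there -1.94 with CHR and 0.68 with NP.

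The rank of FGFR4 in the DMSO channel was not the same on all arrays. In the DMSO channel FGFR4 ranked between the 97.4th and 99.4th percentiles on the 12 arrays of CHR, BA, BF and IND, between the 70th and 81.7th on the 6 arrays of BaP and PH and between the 70.9th and 79.8th on the 9 arrays of DBA, 3MC and NP. In the compound channel it ranked between the 63.6th and 64.4th with BF and between the 86.8th and 87.6th with CHR, against 69.8 to 72.3 with BaP and 74.9 to 76.4 with PH. So the lowest ratios of FGFR4 were on arrays where it ranked high in the DMSO channel, while BA and IND, with equally high DMSO ranks, had means of -0.33 and -0.76. The part of the DMSO rank in the differences between compounds was not tested. Within the 4 compounds of the first set, whose DMSO ranks were alike, BF was lowest, then CHR, then IND and BA, which overlapped.

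**Figure D2:**
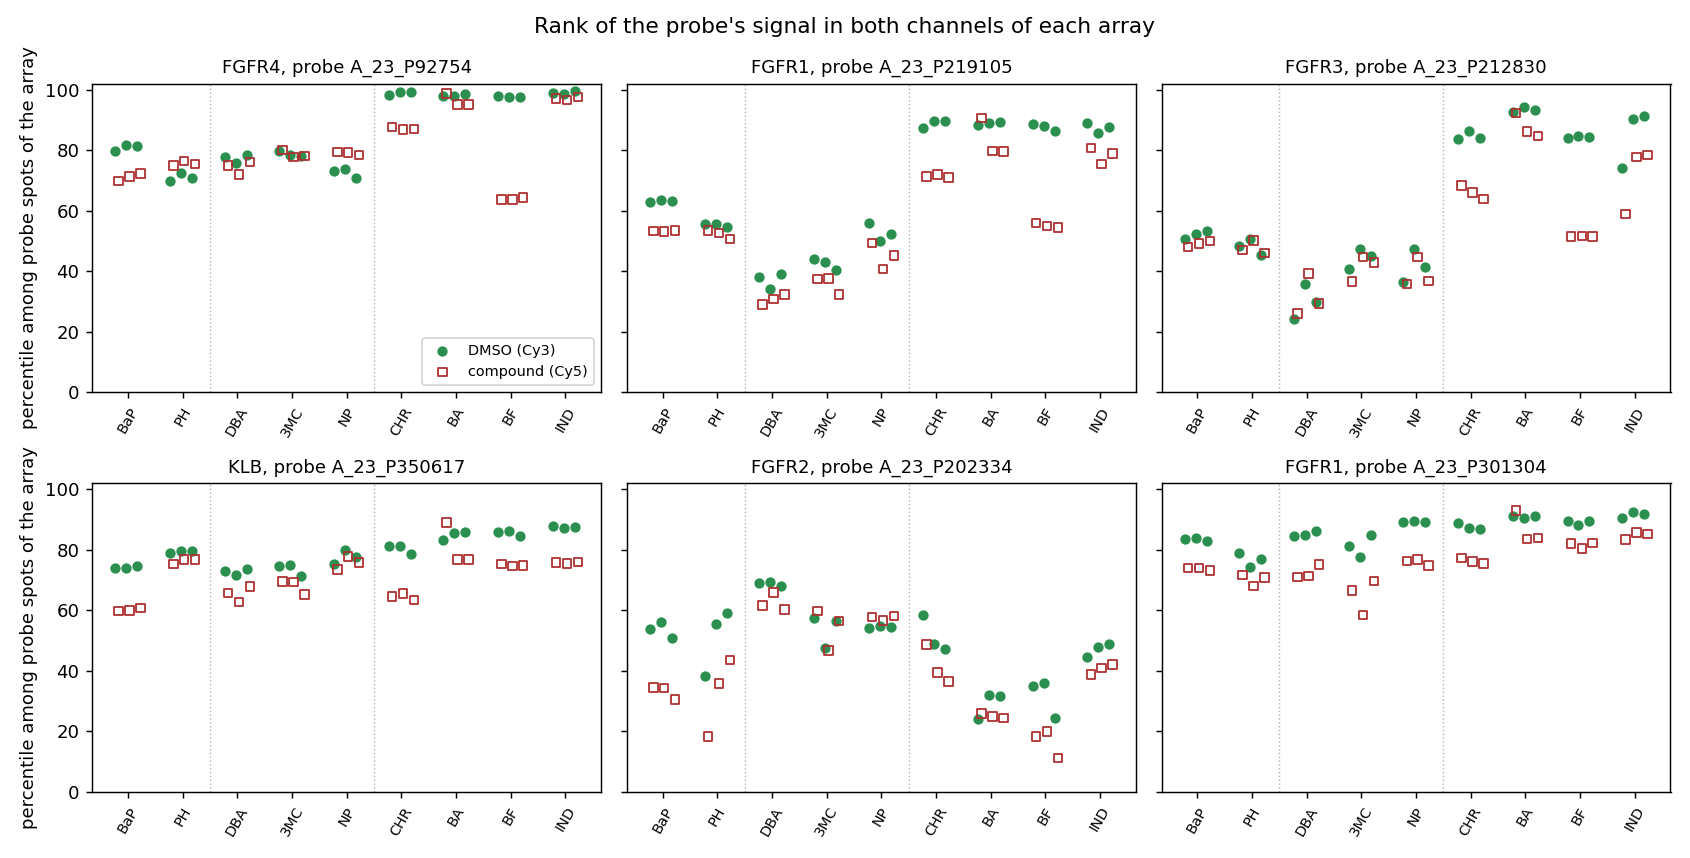
Percentile of the signal among all probe spots (vertical axis) in the DMSO channel (filled circles) and the compound channel (open squares) on each array, for 6 probes, with compounds ordered and parted by dotted lines into BaP and PH, then DBA, 3MC and NP, then CHR, BA, BF and IND. FGFR4 in DMSO lies at 97.4 to 99.4 in the last set and at 70 to 81.7 in the others, and FGFR4 with BF drops to 63.6 to 64.4.

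FGFR3, which was bright in HepG2, was lowest with the 4 compounds that had the lowest KLB ratios. Its brighter probe ranked between the 90.3rd and 98.7th percentiles of DMSO signal on all arrays. With BF it gave -1.65, -1.63 and -1.52, with IND -1.27, -1.17 and -1.27 and with BaP -1.11, -1.18 and -1.19. BF did not overlap IND, and IND and BaP overlapped. CHR gave -0.79, -0.69 and -0.95 and overlapped neither BaP nor DBA. DBA (-0.46 ± 0.04) and PH (-0.44 ± 0.09) overlapped, and 3MC (0.22 ± 0.02) and NP (0.36 ± 0.02) had all arrays above 0. BA gave 0.22, -0.66 and -0.66, or a mean of -0.66 without array 1.

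The second FGFR3 probe, with the same RefSeq accession NM_000142, gave a lower ratio with BF. It gave -3.60, -3.49 and -3.51 with BF, 11.6-fold lower, against 3.03-fold lower on the first probe, with Cy5 above background on 2 of 3 arrays. With CHR it gave -1.24, -1.77 and -1.78 and with IND -1.37, -1.41 and -1.44. With BaP, however, it gave only -0.31 ± 0.04 against -1.16 ± 0.04 on the first probe. The second probe ranked between the 73.9th and 94.2nd percentiles in DMSO on the CHR, BA, BF and IND arrays, but between the 24.1st and 53.3rd on the other 15. The first probe's rank differed less between these sets.

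FGFR1, the main partner of KLB for FGF21, had 6 probes that gave different orders of the compounds. Its brightest probe (accession NM_023109) was below 0 on every array except BA array 1. NP gave -1.63, -1.74 and -1.69, 3MC -1.42, -1.57 and -1.59 and DBA -1.19, -1.17 and -1.14, and no 2 of these overlapped. CHR (-1.01 ± 0.03), BF (-0.99 ± 0.04) and BaP (-0.95 ± 0.02) overlapped in sequence, IND was at -0.87 ± 0.04 and PH at -0.65 ± 0.05. BA was at -0.39 ± 0.52, or -0.70 without array 1. On this probe NP, with FGFR4 above DMSO, had the lowest FGFR1 ratio of the 9 compounds.

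A pair of other FGFR1 probes, both with the accession NM_023111, gave their lowest ratios with BF. The first gave -3.62, -3.53 and -3.41 with BF, or 11.5-fold lower, and the second -3.30, -3.05 and -3.14, or 8.97-fold lower. CHR followed at -1.55 ± 0.21 and -1.55 ± 0.26, and BaP at -1.04 ± 0.07 and -1.05 ± 0.19. With NP the first gave -0.48 ± 0.03 and the second 0.13 ± 0.06. Both ranked high in DMSO on the CHR, BA, BF and IND arrays (85.6 to 89.7 and 79.5 to 87.3) and lower on the BaP and PH arrays (54.5 to 63.4 and 59.7 to 68.3). On the DBA, 3MC and NP arrays they ranked between 34.2 and 55.9 and between 15.5 and 27.4. This is the same division of arrays as for FGFR4 and the second FGFR3 probe, and its part in the ratios was not tested.

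The remaining FGFR1 probes gave smaller ratios with BF. The probe with accession NM_023110 gave -1.59 ± 0.13 with CHR, -1.12 ± 0.05 with BaP, -0.90 ± 0.05 with BF and -0.77 ± 0.08 with PH, and lay at 0.05 to 0.16 with DBA, 3MC and NP. The probe with accession NM_023107 gave -1.20 ± 0.04 with NP, and with 3MC, where Cy5 was not above background on any array, it was at least 1.52-fold lower. The probe with accession AK024388 lay between -0.13 and 0.19 with all 9 compounds. Over the 6 probes the means spread by 3.39 with BF, 1.85 with NP, 1.64 with CHR and 3MC and 0.78 with PH. With CHR 4 of the 6 probes lay between -1.59 and -1.01 and the other 2 at -0.01 and 0.05.

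**Figure D3:**
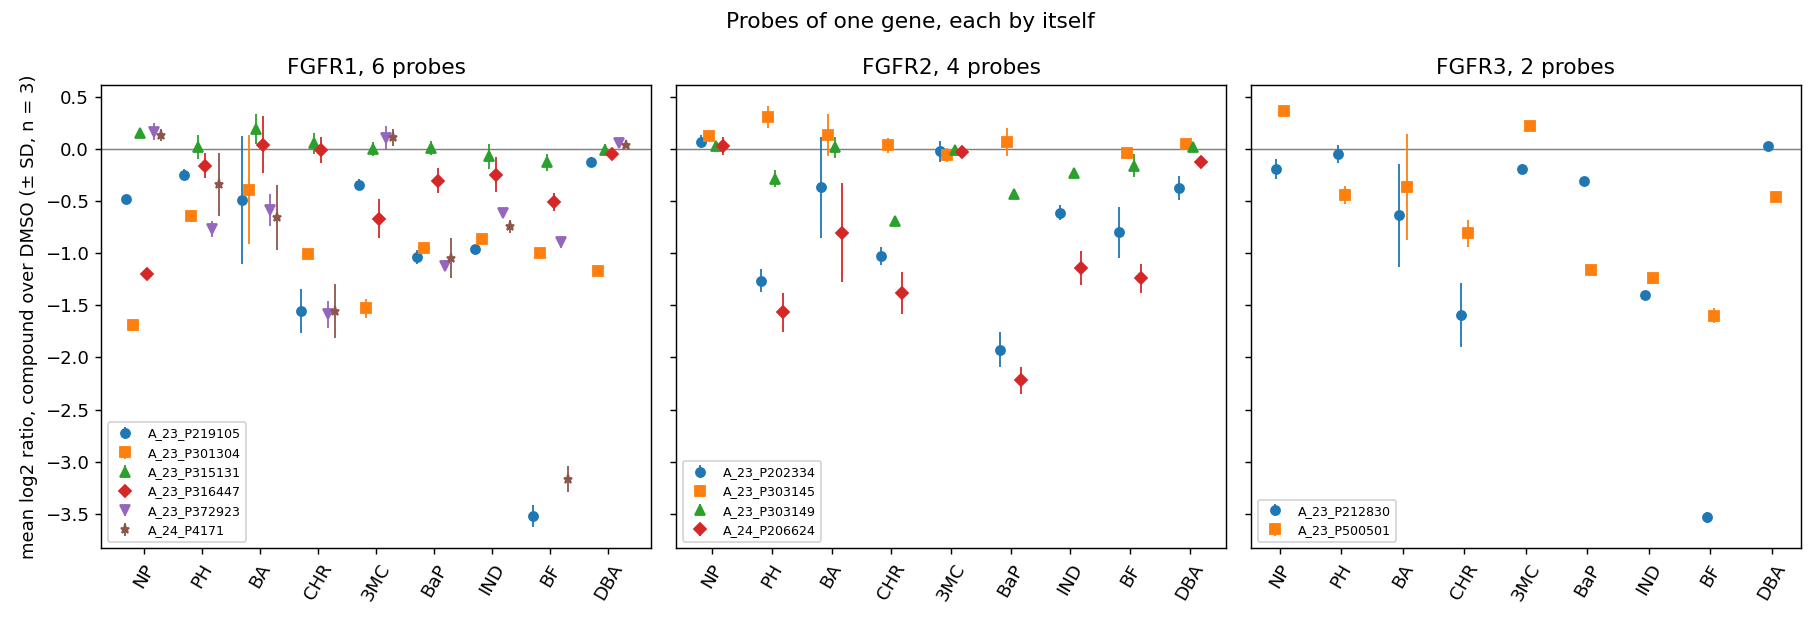
Mean log2 ratio of compound over DMSO ± SD (n = 3) for every probe of FGFR1 (6 probes), FGFR2 (4) and FGFR3 (2), by compound. With BF a pair of FGFR1 probes and 1 FGFR3 probe lie below -3 while the other probes of these genes lie between -1.60 and -0.13.

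FGFR2 was lowest with BaP on its brightest probe. Its brightest probe gave -1.77, -2.11 and -1.90 with BaP, 3.80-fold lower, -1.22, -1.39 and -1.19 with PH and -0.99, -0.96 and -1.12 with CHR. BaP, PH and CHR did not overlap. A second probe gave these 3 in the same order, with -2.22 ± 0.13, -1.57 ± 0.19 and -1.38 ± 0.20, but PH and CHR overlapped on it. With CHR both of its channels were above background on 1 of 3 arrays. With plain background subtraction this second probe was lower with IND (-3.66 ± 0.95) and BF (-3.09 ± 0.37) than with BaP (-2.94 ± 0.25). Its Cy5 was above background on 0 of 3 arrays with IND and with BF. On the brightest probes, PH was 2.40-fold below DMSO for FGFR2, 1.57-fold for FGFR1 and 1.36-fold for FGFR3. NP (0.07 ± 0.06) and 3MC (-0.03 ± 0.10) lay at DMSO, IND at -0.61 ± 0.07 and DBA at -0.38 ± 0.12. With BF the mean was -0.80 ± 0.24, but Cy5 was above background on 0 and Cy3 on 1 of 3 arrays, and with BA neither channel was on any array. The other 2 FGFR2 probes were above background in DMSO on 11 of 27 and 17 of 24 arrays and had means between -0.69 and 0.30.

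For each of the 7 genes, the genes with the most similar log2 ratios over the 24 arrays of the shared platform were listed, out of 17252, by Pearson's r on the brightest probes. Arrays of a compound share the treatment, all were normalised in the same way, and nothing says whether DMSO RNA was shared. So r is a description only. FGFR4 was most like TFR2 (transferrin receptor 2, 0.994) and SLC38A3 (a glutamine transporter, 0.991). FGFR3 was most like SCD (a fatty acid desaturase, 0.965), FTCD (0.961) and RGN (0.955), and KLB like FGGY (0.962), SOWAHA (0.955) and GPC6 (0.947). FGFR2 was most like CDCA7L (0.947), ZWILCH (0.945) and OSBPL6 (0.945) and FGFR1 like CPEB3 (0.922), MPZL1 (0.915) and ZNF665 (0.899). FGF21 was most like NECAB2 (0.915) and TTLL11 (0.904), and FGF19, near background, reached only 0.781 with SIM2 and POU6F1 and 0.766 with XK.

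The rest of the pathway was followed in 4 lists of 78 genes that hold none of the 7. The lists were chosen with earlier results of these data known, and no list was tested as a set. For these, limma with Benjamini-Hochberg adjustment over all genes was used, and rose and fell mean an adjusted p under 0.05 with at least 1.5-fold. Over all lists 15 genes rose and 6 fell with NP, 21 and 4 with PH, 6 and 2 with BA, 10 and 15 with CHR, 8 and 3 with 3MC and 19 and 8 with BaP. With IND 15 of 67 tested genes rose and 3 fell, with BF 17 rose and 21 fell, and with DBA 7 rose and 6 fell. Without BA array 1, 13 genes in place of 8 were called with BA. The listed genes that rose and fell were thus 21.8% and 26.9% with BF, 24.4% and 10.3% with BaP, 12.8% and 19.2% with CHR and 22.4% and 4.48% with IND. They were 26.9% and 5.13% with PH, 19.2% and 7.69% with NP, 10.3% and 3.85% with 3MC, 8.97% and 7.69% with DBA and 7.69% and 2.56% with BA. With BF the shares over all genes, 16.1% and 20.6%, were near these. Over all genes they were 15.1% and 10.1% with BaP, 11.9% and 12.6% with CHR and 11.1% and 13.7% with IND. With PH they were 10.5% and 7.97%, with NP 6.68% and 12.5% and with 3MC 3.69% and 7.41%. With DBA they were 3.08% and 7.23% and with BA 2.10% and 3.13%. The median ratio of the 78 genes was 0.24 with PH, where the median of all genes was 0.04, and between -0.09 and 0.06 with the other compounds. Below, KL, SPRY4, DUSP6, SPRY2, ETV5, MYC, FRS2, MAPK3, HNF4A, CYP27A1, CYP7A1, CYP8B1 and DDIT3 were picked after their values were seen, and the other genes by how many compounds called them.

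Among 15 other FGF ligands, receptors and binding proteins few changed. With BF 13.3% fell, against 20.6% of all genes, and with CHR and BaP 6.67% each, against 12.6% and 10.1%. With PH 6.67% rose and 6.67% fell, against 10.5% and 7.97%, and no gene of this list was called with the other compounds. FGFRL1, an FGF receptor that lacks the kinase, fell with BF (-2.60 ± 0.08, adjusted p 6.8e-17), CHR (-1.17 ± 0.12) and BaP (-0.86 ± 0.09) and rose with PH (0.82 ± 0.06) on its brighter probe. Its second probe gave -0.34, -0.61, 0.14 and 0.25. FGF1, a growth factor without a secretion signal, fell with PH only among the 9 compounds (-0.69 ± 0.05), and FGF18 fell with BF (-0.60 ± 0.09), a call lost without BF array 3 (-0.55). FGF8 and FGF10 were called with no compound. The classical co-receptor KL gave -0.09 to 0.26 over the 8 compounds in which it was tested, near background.

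In the relay from receptor to ERK, 20 genes were tested. SHC1, an adaptor, rose with 7 compounds, by 0.79 to 1.39, and was at 0.39 ± 0.15 with BA and 0.41 ± 0.02 with 3MC. With BF a second SHC1 probe gave -1.75 against 0.79 ± 0.05 on the brighter one. SOS1, which activates RAS, rose with IND (2.55 ± 0.09), BF (1.71 ± 0.03), CHR (1.29 ± 0.08), BA (1.19 ± 0.77) and BaP (0.72 ± 0.12). The kinase MAP2K1 rose with 5 compounds by 0.63 to 0.83, and MAP2K2 rose with NP, PH, BaP and DBA and fell with BF (-0.90 ± 0.09). The docking protein GAB1 fell with BF (-1.22 ± 0.08), BaP (-0.91 ± 0.13), CHR (-0.75 ± 0.06) and PH (-0.75 ± 0.09). With BF 7 relay genes fell (35%, against 20.6% of all genes) and 5 rose (25%, against 16.1%). MAPK3, which encodes ERK1, was among those that fell (-2.69 ± 0.11, and -0.86 ± 0.19 with CHR). FRS2, the adaptor bound by FGF receptors, was called with BF and no other compound, on spots whose Cy5 was above background on 0 of 3 arrays and Cy3 on 1, and its second probe gave -0.12.

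Targets and feedback inhibitors of ERK rose in more cases than they fell, except with 3MC and DBA. Of the compounds with 5 of the 7 genes at least 1.5-fold lower, risen genes outnumbered fallen by more with BF, BaP and IND than with CHR. This list, too, was chosen with earlier results of these data known, so its shares are a description only. Of 20 genes 10 rose and 3 fell with BF, 10 and 1 with BaP, 9 and 1 with PH, 8 and 2 with NP, 5 and 2 with CHR and 5 and 0 with BA, and 9 of 18 rose and 0 fell with IND. With 3MC 3 rose and 3 fell, and with DBA 2 rose and 3 fell. The risen share was 50% with BF, BaP and IND, against 16.1%, 15.1% and 11.1% of all genes, and 10% with DBA, against 3.08%. It was 25% with CHR and BA, against 11.9% and 2.10%, and 45% with PH and 40% with NP, against 10.5% and 6.68%. With 3MC it was 15%, against 3.69%. The list's median ratio was 0.63 with BF, 0.57 with IND, 0.49 with BaP and 0.46 with PH, against medians of all genes between -0.01 and 0.04. It was 0.30 with NP, 0.19 with BA, 0.11 with 3MC, 0.01 with DBA and -0.01 with CHR. IER3, an early response gene, rose with all 9 compounds, from 0.87 ± 0.01 (3MC, adjusted p 0.0028) to 2.87 ± 0.11 (BaP, adjusted p 2.4e-10). The ERK phosphatase DUSP5 rose with 8, by 4.50 ± 0.04 with BaP, 4.17 ± 0.06 with BF and 4.15 ± 0.10 with PH, and with DBA it was 0.65 ± 0.10 (adjusted p 0.056). The DUSP5 call with 3MC (0.67 ± 0.07) was lost whichever 3MC array was left out (0.64 to 0.70, adjusted p 0.0999 to 0.139). These p-values for DBA and 3MC use the spread of DUSP5 over all shared arrays, BA included.

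The transcription factors of this list followed. FOSL1 rose with 7 compounds, up to 3.04 ± 0.02 with BF. EGR1 rose with 6, up to 3.66 ± 0.03 with BF and 2.29 ± 0.09 with IND, and was at -0.08 ± 0.05 with 3MC and -0.22 with DBA. FOS rose with 6, up to 2.31 ± 0.02 with BF and 2.30 ± 0.07 with IND, and its call with PH (0.65 ± 0.17) was lost without PH array 3 (0.58). Of the inhibitors nearer to FGF signalling, SPRY4 rose with 6 compounds and DUSP6 with BaP (0.85), BF (1.01) and IND (1.40), while SPRY2 fell with NP, 3MC and DBA (-0.62, -0.74 and -0.62). ETV5 fell with 4 compounds and rose with none, and MYC fell with 5 and rose with none. Their second probes differed: MYC gave -0.07 with NP and -0.01 with DBA there, against -0.68 and -1.31, and ETV5 gave -1.89 with BF and -0.07 with DBA, against -0.94 and -0.78. The BA values rest on arrays 2 and 3: IER3 gave -0.15, 1.93 and 1.87 there, and EGR1 0.07, 2.00 and 2.05.

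**Figure D4:**
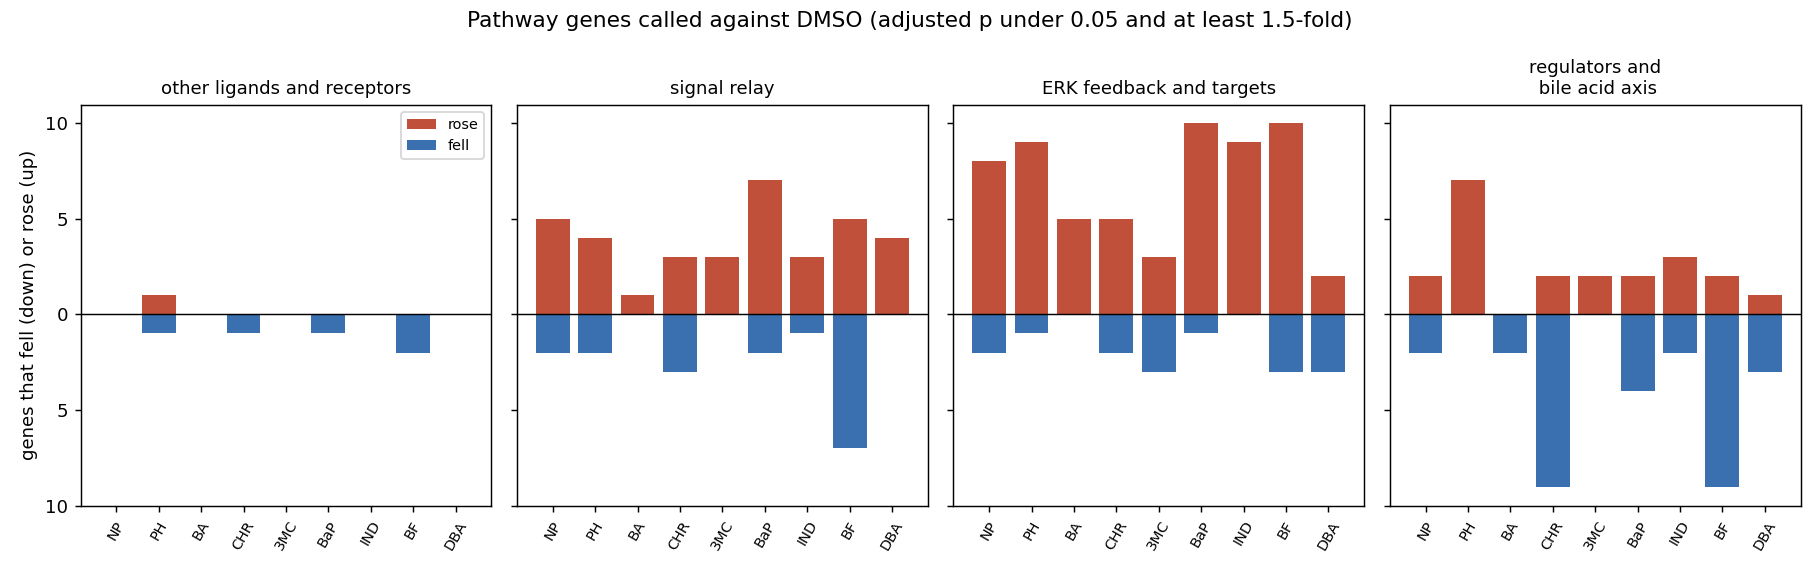
Number of genes that rose (upward bars) or fell (downward bars) at an adjusted p under 0.05 and at least 1.5-fold, by compound, in 4 lists of 15, 20, 20 and 23 genes. The list of ERK feedback and targets has 10 risen genes each with BaP and BF, and the list of regulators 9 fallen genes each with CHR and BF.

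Regulators of these genes and the bile acid axis, 23 genes, fell most with CHR and BF (9 each, with 2 risen), while with PH 7 rose and 0 fell. The fallen share was 39.1% with each, against 12.6% of all genes with CHR and 20.6% with BF. The risen share with PH was 30.4%, against 10.5% of all genes. The list's median was -0.43 with BF, -0.36 with CHR and 0.29 with PH. NR1H4, the bile acid receptor FXR that induces FGF19, fell with BF (-3.35 ± 0.06, adjusted p 1.4e-15). Cy5 was above background on 1 of 3 arrays there. NR1H4 also fell with BaP (-2.76 ± 0.07), CHR (-1.99 ± 0.13), BA (-1.03 ± 0.70) and DBA (-0.81 ± 0.05). With IND NR1H4 was 3.58-fold lower on average (adjusted p 0.0160), with arrays at -2.44, -0.10 and -2.98 and Cy5 not above background on any. The IND call was lost without array 1 (adjusted p 0.0662). NR0B2, the repressor SHP that FXR induces, rose with BaP (1.74 ± 0.12), CHR (1.52 ± 0.12), PH (1.32 ± 0.04), 3MC (1.08 ± 0.04) and DBA (1.04 ± 0.11). With BF NR0B2 was at -0.03 ± 0.02, but at 0.77 with median centring in place of loess. SLC51B, a bile acid exporter subunit, rose with BF (1.21 ± 0.06), CHR (1.05 ± 0.15) and BaP (0.87 ± 0.20), and with IND on spots whose Cy5 was above background on 0 of 3 arrays.

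CEBPA, a hepatocyte transcription factor, fell with BF (-2.47 ± 0.11), CHR (-1.86 ± 0.09), IND (-1.80 ± 0.14), BA (-1.03 ± 0.88), DBA (-0.75 ± 0.11) and BaP (-0.71 ± 0.05) and rose with PH (0.70 ± 0.01), while its other 2 probes gave -2.76 and -0.79 with BF and -0.50 and 1.37 with PH. HNF4A, another hepatocyte factor, was 4.04-fold lower on average with BF, with Cy5 not above background on any array. HNF4A fell with CHR (-0.75 ± 0.39) and rose with PH (0.64 ± 0.16), and its other probes lay between -2.03 and 0.19 with BF. Of the bile acid synthesis enzymes, which FGF19 signalling represses, CYP27A1 fell with BF (-3.45) and CHR (-1.14), CYP7A1 was at least 1.49-fold lower with BF, and CYP8B1 lay between -0.43 and 0.16 with all 9 compounds. Of the stress genes that accompany FGF21, TRIB3 rose with PH (0.83 ± 0.15), BF (0.77 ± 0.55) and NP (0.72 ± 0.05) and fell with CHR (-0.80 ± 0.25) and DBA (-0.72 ± 0.03). A second TRIB3 probe gave -2.44 with BF and 0.01 with DBA, and the BF call was lost without array 2 (0.48). DDIT3 rose with PH (1.59), NP (0.70) and 3MC (0.59).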

How the data were processed

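Scanner output of 27 arrays was used. Its columns are intensity readings for spots and for the background around them, 1 set per dye, deposited by the authors without normalisation, and the percent of saturated pixels per spot, per the file headers. A table of log2 ratios was also deposited by the authors, normalised in a way not given in the sources used here, and 20 of 27 columns could be tied to spots and served as an alternative (7 were not used). Probes were named through RefSeq (GRCh38.p14) by accession, then symbol, then older symbol, giving a name to 26424 of 41000 (shared platform) and 26778 of 41000 probes (IND).

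With R 4.3.3 and limma 3.58.1, background was corrected with normexp (offset 50) and each array normalised with loess, with control spots and flags of -75 or lower at weight 0 and no scaling between arrays. Replicate spots were averaged by probe. Dim probes were left out: for some compound, 2 or more of its 3 arrays had to exceed background by more than 2 background SDs in the same dye. The brightest probe stood for its gene. The fit had 1 mean per compound, tested 2-sided against 0, with 24 arrays together and IND alone, and Benjamini-Hochberg adjustment over genes. Each gene had 1 spread for the 24 arrays, so scatter among the BA arrays also raises p-values of the other compounds in that fit. Saturated means over 50% of pixels. Where a channel was never above background, a change is given as "at least", from channel means after loess and Aquantile and open to dye bias. For NR1H4 with IND and HNF4A with BF this value equalled the mean ratio and is given as a mean. The number of arrays limits the precision.

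The members and lists were chosen with earlier results of these data known. Named pathway genes are up to 5 per list, called in the most compounds, then by largest mean ratio. Up to 3 most similar genes are given per member. Some genes are not reported here. Alternatives were plain subtraction or no background correction, median centring, quantile scaling, no filter, the mean of probes, a replicate block, the authors' values and leaving out each array. Leaving BA array 1 out of the shared fit was an alternative chosen after seeing the data. Equal array numbers of different compounds did not deviate together (28 pairs of compounds, mean correlation of deviations 0.0022, highest 0.095). On simulated ratios, 97% to 100% of 2-fold and 100% of 4-fold changes among 200 genes per compound were recovered. For BA this was 100% of both, although the real BA array 1 correlated at only 0.13 and 0.18 with the other BA arrays. These shares may thus be too high for the real arrays. Python 3.11.15, pandas 2.3.3, numpy 2.4.6 and matplotlib 3.10.9 were used for reading and drawing.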

Additional observations from a re-analysis of the deposited data

Results flagged for a closer look

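In 8 genes all 3 arrays of a compound lay above 0 and all 3 of another below 0. None of these differences between compounds was tested, and doses are not given. Among the genes described, FGFR4 was higher with NP than with BF by 4.81 on the log2 scale (0.50 against -4.31), and FGFR3 by 1.96 (0.36 against -1.60). FGF21 was higher with PH than with CHR by 0.78 (0.23 against -0.55), at signals near background. FGF19 was higher with NP than with IND by 0.39 (0.13 against -0.26), on different probes of different platforms and near background.

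Among pathway genes, called up with the first compound and down with the second, FGFRL1 was higher with PH than with BF by 3.42 (0.82 against -2.60) and CEBPA by 3.17 (0.70 against -2.47). MAP2K2 was higher with NP than with BF by 1.84 (0.94 against -0.90), and TRIB3 with PH than with CHR by 1.62 (0.83 against -0.80).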

How the results depend on the processing

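Of the 25 mean ratios of the 7 genes past 1.5-fold on the brightest probe, all 25 kept their direction with plain background subtraction, no background correction, median centring, quantile scaling or the mean of probes. With median centring FGFR4 with IND (-0.76 to -0.38) and FGFR3 with CHR (-0.81 to -0.52) were no longer past 1.5-fold, so 4 of 7 genes were with each, FGFR3 with BF went from -1.60 to -0.91, and with quantile scaling FGFR1 with PH (-0.58) and FGFR2 with IND (-0.56) were not. With the mean of probes 19 of 25 stayed past it, and FGFR1 went to -0.49 with NP, -0.39 with 3MC, -0.21 with DBA, -0.36 with PH and -0.58 with IND and FGFR2 to -0.56 with BF. FGFR4 with NP came to 0.59 with plain subtraction, 0.61 with quantile scaling and 0.68 with the authors' values. FGF21 with CHR (-0.55) came to -0.75 with plain subtraction, -0.78 with the authors' values and -0.61 without CHR array 2. FGF19 with IND (-0.26) came to -1.05 with plain subtraction. KLB with DBA (-0.50) came to -0.67 with plain subtraction and -0.62 with quantile scaling, and FGFR2 with DBA (-0.38) to -0.63 with the authors' values. Calls of named pathway genes were lost in 13 cases with the mean of probes, 5 with median centring, 4 with quantile scaling and 4 with the authors' values, CEBPA and TRIB3 with DBA in all 4. Counts of called genes moved by over 1.5 times as follows. With BA, 902 genes were called, and 1774 with plain subtraction, 2224 with median centring, 597 with the authors' values and 599 (without array 3) to 1832 (without array 1) when 1 BA array was left out. The 8 pathway genes called with BA became 13 with plain subtraction, 17 with median centring and 7 to 13 (13 without array 1) when 1 BA array was left out. With DBA, 1780 genes became 3441 with plain subtraction and 2696 with quantile scaling, and 13 pathway genes became 7 with the mean of probes. With 3MC, 11 pathway genes became 7 with the mean of probes. Some directions turned: with BF, NR0B2 went from -0.03 to 0.77 with median centring, SHC1 from 0.79 to -0.48 with the mean of probes and TRIB3 from 0.77 to -0.83 with it, where the second probe of each is far lower. For all others the cause was not tested.

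The share of called genes that rose moved by over 10 points with scaling. It went with NP from 34.7% to 16.9% (median centring) or 52.5% (quantile scaling), and with DBA from 29.9% to 71.1% or 43.1%, or 40.1% with plain subtraction. With BF it went from 43.9% to 55.0% or 55.9%, with BaP from 59.9% to 73.3% (median centring), with 3MC from 33.2% to 48.2% (quantile scaling) and with BA from 40.1% to 51.8% (plain subtraction). With the array number as a replicate block, 6341 genes and 38 pathway genes were called with BF and 3317 and 21 with NP, as without it, and no count of another compound on the shared platform changed. Each array number occurs once per compound, so the block leaves compound means as they were and could change calls only through the spread. The equal counts therefore say little about the calls. The block could not be fitted for IND alone. The authors' values were not used for IND. Signals of FGF19, FGF21 and FGFR2 near background limit what their ratios can show.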
